A study of Mus musculus with 11 samples.

Results

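Expression was compared between the spinal cord of mice heterozygous for the S87L change of Morc2a and the spinal cord of wild-type mice, both C57BL/6, by RNA sequencing with 3 libraries per genotype. A gene entered the comparison when its mean over these 6 libraries was at least 0.5 FPKM. FPKM is sequenced fragments divided by gene length in kilobases and by a read total of the library in M. The total that the values imply lay near the reads of protein-coding genes and below all recovered reads. It was 18.109 M for wild-type replicate 1, with 18.053 M coding and 18.967 M recovered reads. For S87L replicate 1 it was 19.68 M, with 19.619 M and 20.43 M. That rule kept 15648 of the 55487 identifiers in the table, and the identifiers nearest to the limit were 1700086P04Rik just under it, at 0.499892 FPKM, and Gm29156 just above it, at 0.500074 FPKM. The study also holds 5 libraries of fetal fibroblasts, 3 wild-type and 2 S87L, which are used here only to ask where the effect of the genotype differs between the tissues. The labels give neither the age and sex of the animals nor the segments of the cord that were taken, and they do not tie each library to an animal. A p-value here thus rests on the spread among libraries, part of which may come from preparation alone.

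MORC2A is an ATPase of the nucleus that compacts chromatin and works with the HUSH complex, which silences transposons and some clustered gene families. Changes in its ATPase domain cause inherited neuropathies in people, in which motor neurons or their axons are affected. The spinal cord holds the cell bodies of motor neurons, interneurons that relay and pattern movement and sensation, the oligodendrocytes that make central myelin, astrocytes and microglia, and it is wrapped in meninges with their own vessels, fibroblasts and macrophages.

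Recovered reads, obtained from the steps in which the FPKM values move, numbered 15.35 to 18.97 M in the wild-type and 19.40 to 23.53 M in the S87L libraries, so depth was higher throughout in S87L. Chi-square per degree of freedom between libraries of a group was 1.51 to 4.67, with wild-type replicate 1 and S87L replicate 3 farthest from the others of their group. The axonal neurofilament Nefl stood at 645 to 675 FPKM in all libraries, while markers of fast skeletal muscle were low but above 0. The X-inactivation RNA Xist stood at 17.3 to 28.3 FPKM and the Y-linked genes Kdm5d and Eif2s3y were listed at 0 in all 6 libraries. Morc2a itself was measured at 5.61, 5.66 and 5.71 FPKM in wild-type and at 4.71, 4.93 and 4.95 FPKM in S87L cord. As for every called gene, the groups did not overlap, and the log2 fold change was -0.20 (SE 0.04, limma adjusted p = 0.0269). Without wild-type replicate 1 the gene was still called, and leaving out any of the other 5 libraries ended the call. A sum over both alleles cannot check the genotype.

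Of the 15648 genes, limma called 809 higher (5.17%) and 1207 lower (7.71%) in S87L cord at a Benjamini-Hochberg adjusted p under 0.05, 12.9% in all. The excess of lower calls depended on the scaling: quantile normalization gave 839 higher and 892 lower, median ratio scaling gave 1023 and 993, and removal of the trend with GC content and length, chosen after seeing the data, gave 1766 and 1533. The changes were small, with a median size of 0.32 on the log2 scale among called genes and -0.02 as the median change over all genes. In all, 134 genes were higher and 235 lower by at least 1.5-fold. The groups did not overlap for any of the 2016 called genes, so non-overlap adds nothing to a call. Over all 15648 tested genes, called or not, the groups did not overlap for 5500. Calls that held also in each of the 6 fits that left out 1 library numbered 309 higher (1.97% of tested genes) and 362 lower (2.31%). These 671 genes are called stable below. The largest stable rises among annotated genes were sarcomere genes of skeletal muscle, led by Acta1, and the flavin monooxygenase Fmo2. The largest stable falls were the apelin receptor Aplnr, the Hox genes Hoxa10 and Hoxc10, the meiotic cohesin Rec8, the apolipoprotein Apoc1 and the vesicular glutamate transporter Slc17a7. Rec8 was measured at 3.33, 2.92 and 3.93 FPKM in wild-type and at 0.485, 0.39 and 0.438 FPKM in S87L cord.

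**Figure D1:**
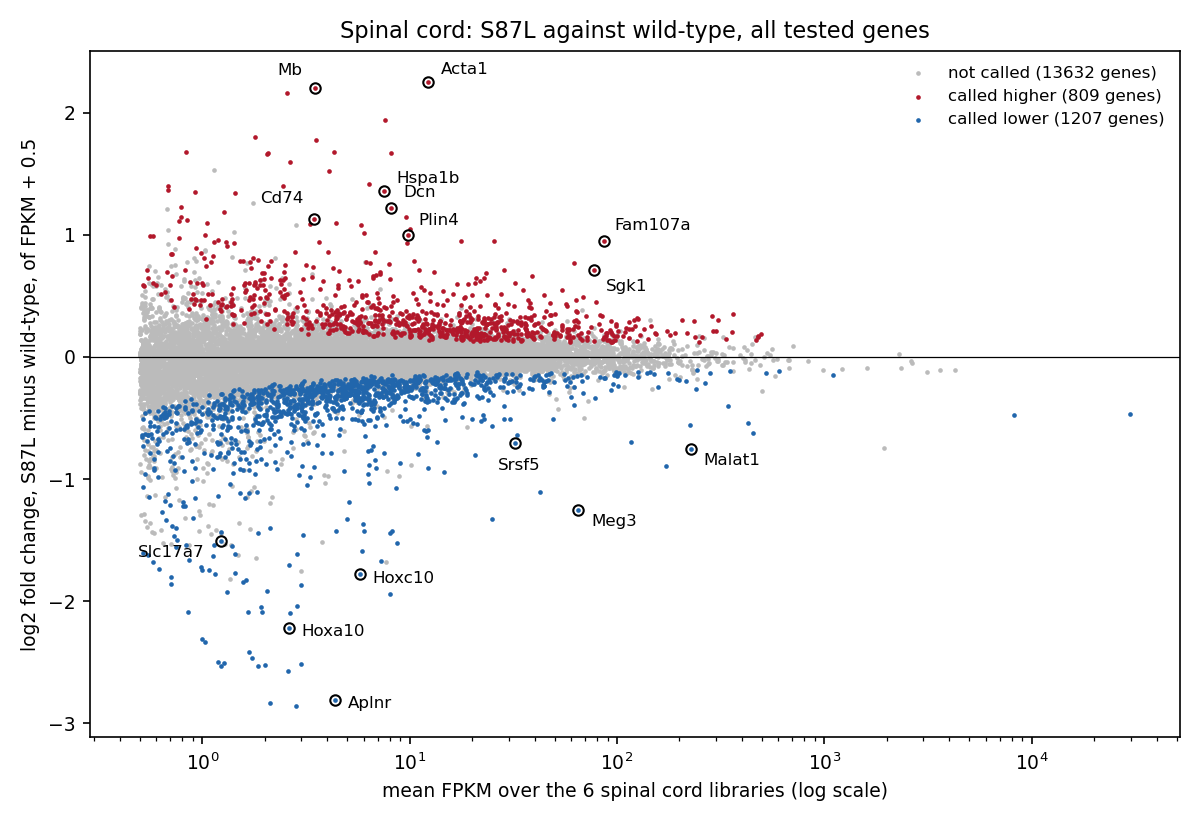
Each point is a tested gene; the x axis gives its mean FPKM over the 6 cord libraries on a log scale and the y axis its log2 fold change, S87L minus wild-type. Red points were called higher (809) and blue points lower (1207); circles mark genes described in the text, from Acta1, just above Mb at 2.21, to Aplnr at -2.81.

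Calls were counted in 48 lists of genes by cell type and function, which hold 1216 genes whether called or not. The lists were chosen with earlier results of these data known, so a share above that of all genes is a description only. Among lists with more than 10 tested members, the shares called higher stood farthest above the 5.17% over all genes in border macrophages, fast skeletal muscle and genes that respond to glucocorticoids. The shares called lower stood farthest above the 7.71% over all genes in long noncoding RNAs and splicing regulators, and all 6 tested Hox genes of paralog groups 9 and 10 were lower. Markers of motor neurons had 3 of 25 higher and 1 lower, none of them stable. Of the 48 counts of at least 3 called members, 30 moved by over 1.5 times when some single library was left out, most often S87L replicate 2 (28 counts) or 1 (26), followed by S87L replicate 3 and wild-type replicate 3 (15 each). In bulk tissue, fewer cells of a type and less RNA per cell cannot be told apart.

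**Figure D2:**
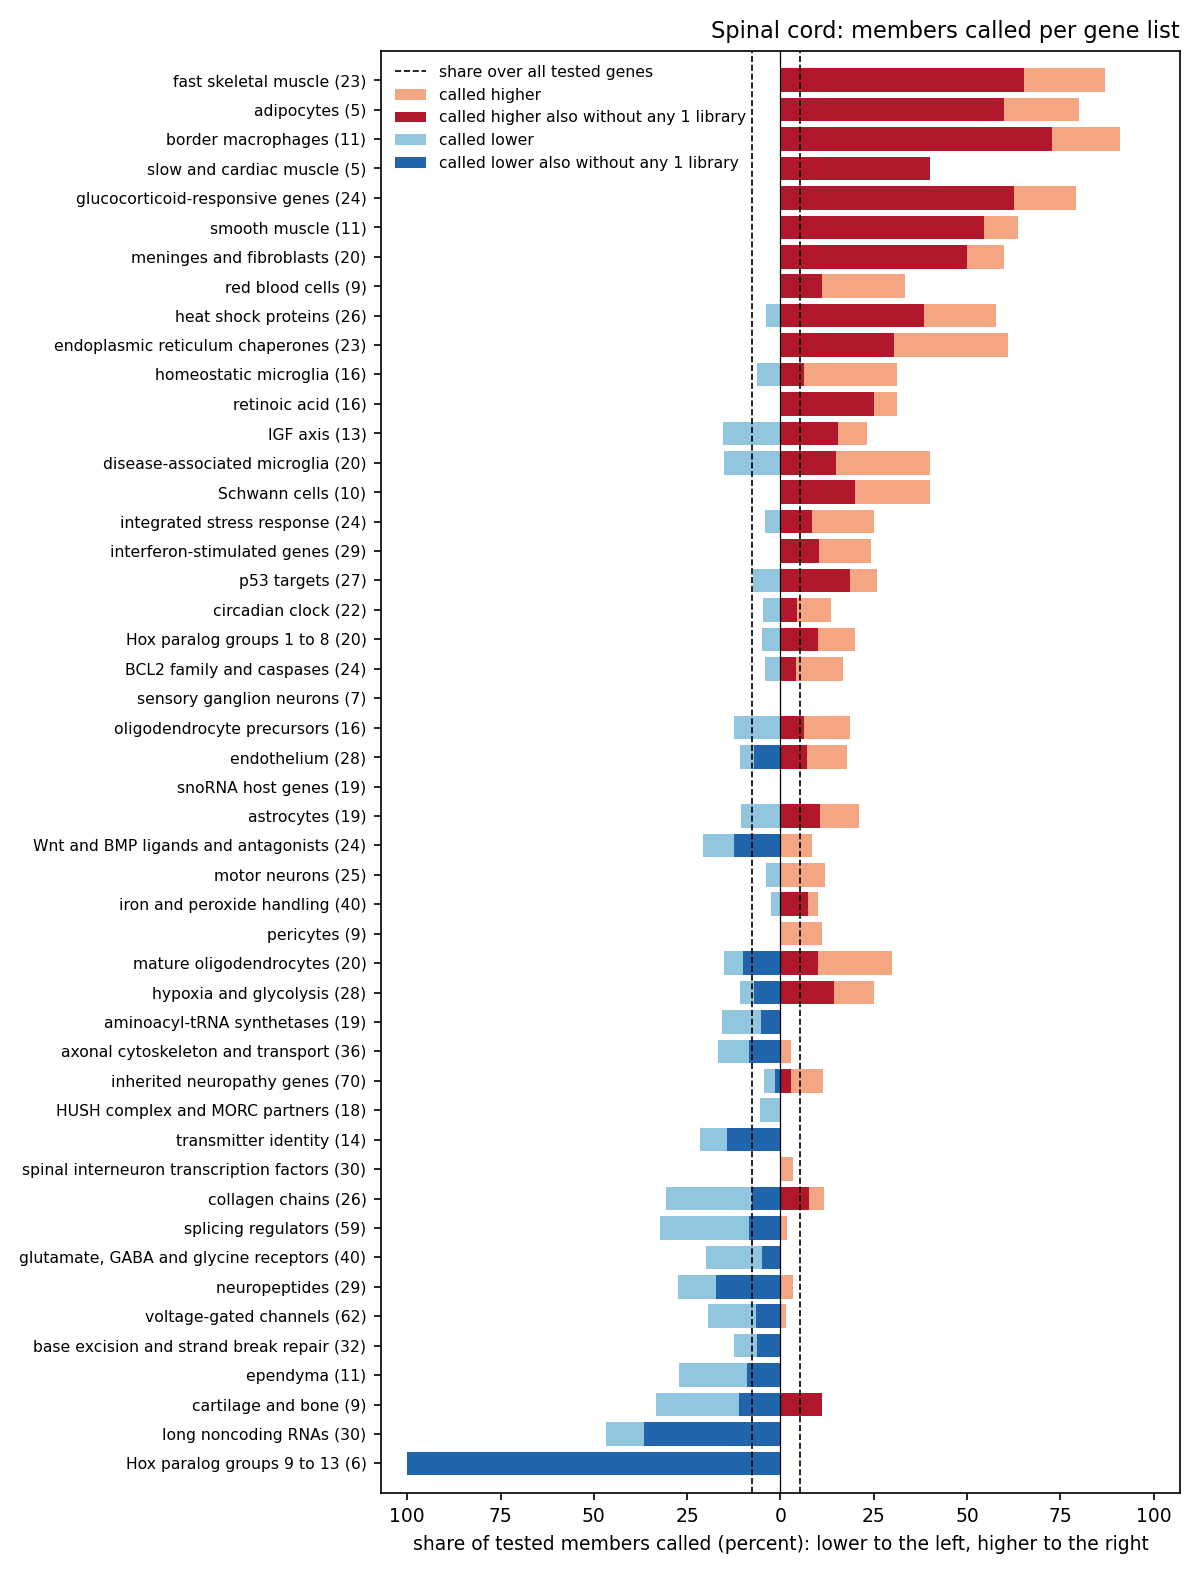
For each list, with its number of tested members in brackets, bars give the percentage of tested members called lower (left) or higher (right) in S87L cord, and the darker part the members called also without any 1 library. Dashed lines mark the shares over all tested genes, 7.71% lower and 5.17% higher. The lists, ordered by the median log2 fold change, were chosen with earlier results of these data known.

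Genes that respond to glucocorticoids were higher in S87L cord. Glucocorticoids are adrenal hormones that act through the receptor Nr3c1, a transcription factor, on genes of energy use, feedback and immune restraint in most cell types. Of 24 tested genes in this list, 19 were higher and none was lower, 15 of the 19 were stable, and the median log2 fold change was 0.59. Fam107a, an actin-binding protein of astrocytes and neurons, was measured at 58.9, 58.2 and 58.4 FPKM in wild-type and at 112, 116 and 113 FPKM in S87L cord (log2 fold change 0.95, SE 0.03, limma adjusted p = 1.65e-05). Its groups lay far apart relative to the spread within either. The kinase Sgk1, which controls ion transport, was at 58.3, 57.9 and 58.8 FPKM against 93.5, 97.0 and 97.6 FPKM (log2 fold change 0.71, SE 0.03, limma adjusted p = 4.88e-05). The lipid droplet protein Plin4 was at 6.06, 6.47 and 6.51 FPKM against 13.3, 13.5 and 12.7 FPKM, a log2 fold change of 1.0. No wild-type library reached the lowest S87L library for any of these genes, as for every gene called higher.

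Other members included regulators of metabolism and feedback inhibitors. Pdk4, which turns fuel use from glucose to fat, was at 7.55, 7.51 and 7.62 FPKM in wild-type and 13, 13.4 and 13.8 FPKM in S87L cord (log2 fold change 0.79). Fkbp5, a co-chaperone that lowers the receptor's affinity for hormone, was at 4.6, 4.15 and 4.46 FPKM against 8.19, 8.08 and 7.48 FPKM (0.78 on the log2 scale). Tsc22d3, known as GILZ, an anti-inflammatory protein, was at 58.7, 55.5 and 56.3 FPKM against 79.1, 80.1 and 80.6 FPKM (0.49). The log2 fold change was 0.44 for the transcription factor Klf9, 0.66 for the NF-kappaB inhibitor Nfkbia, 0.55 for the EGF receptor inhibitor Errfi1 and 1.0 for the lipase inhibitor Angptl4. The 5 members that were not called were Mt1 (-0.18), Mt2 (0.16), Lcn2 (0.30), Per1 (0.18) and the receptor Nr3c1 itself (0.08). Leaving out 1 library gave 15 to 19 members called higher and none lower. Cdkn1a is also in the p53 list and Ddit4 in the hypoxia list, described below. Of 22 circadian clock genes, 3 were higher (1 or 2 with 1 library left out) and 1 was lower, and the stable member was Hlf (0.33 on the log2 scale).

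Protein chaperones were higher as well. Heat shock proteins fold proteins in the cytosol and are induced by the factor HSF1, which binds repeats of a short element in their promoters. Of 26 tested, 15 were higher (10 stable) and 1, Dnajb5, was lower at -0.21 on the log2 scale. Hspa1b, an inducible HSP70, was measured at 4.39, 3.93 and 3.73 FPKM in wild-type and at 11.4, 11.6 and 10.3 FPKM in S87L cord (log2 fold change 1.36, SE 0.07, limma adjusted p = 8.71e-05). Its near-identical copy Hspa1a rose by 0.71 on the log2 scale, and how reads were split between the copies is uncertain. Hsph1, a nucleotide exchange factor for HSP70, was at 46.6, 50.2 and 50.1 FPKM against 66.0, 64.7 and 66.4 FPKM (0.42 on the log2 scale). The co-chaperones Dnajb1, Stip1 and Chordc1 were higher by 0.43, 0.25 and 0.35 on the log2 scale, and Hsp90aa1 by 0.20. The constitutive HSP70 Hspa8 (0.05), the mitochondrial chaperones Hspd1 (0.10) and Hspa9 (-0.03) and Hsf1 (-0.05) were not called.

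Of the genes in this list that were called higher, 12 matched a RefSeq promoter window (GRCm38.p6). The motif searched was GAANNTTC, which is its own reverse complement, in the 150 bases before the start site. Of the 12 genes, 4 held it, against 3.95% of all 32851 windows of this length. A gene was counted if any of its windows held the motif, while 3.95% is a share of single windows, so these shares are not alike. The windows of the 3 stable members with the smallest p and 1 window each are shown to place that element, 5′ to 3′ on the gene's strand, in lower case with the motif in capitals. Hspa1b lies on the minus strand at chr17:34959239-34959388, Stip1 on the minus strand at chr19:7040027-7040176 and Chordc1 on the plus strand at chr9:18292117-18292266.
Hspa1b: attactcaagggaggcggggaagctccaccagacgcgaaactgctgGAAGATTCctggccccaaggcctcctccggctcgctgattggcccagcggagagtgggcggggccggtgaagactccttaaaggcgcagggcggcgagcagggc
Stip1: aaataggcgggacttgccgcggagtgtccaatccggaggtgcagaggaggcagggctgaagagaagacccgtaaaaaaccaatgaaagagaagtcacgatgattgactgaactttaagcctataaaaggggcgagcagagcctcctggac
Chordc1: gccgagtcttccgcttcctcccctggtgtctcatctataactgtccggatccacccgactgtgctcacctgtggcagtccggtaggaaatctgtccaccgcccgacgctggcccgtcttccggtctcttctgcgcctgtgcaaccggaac
The motif occurs in the Hspa1b window and has no match in the other windows shown. A match is a description of the letters and not of binding.

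Chaperones of the endoplasmic reticulum, which fold secreted and membrane proteins, had 14 of 23 tested members higher (7 stable) and none lower, with 8 to 13 higher when 1 library was left out. Hspa5, the HSP70 of that compartment, was at 115, 112 and 111 FPKM in wild-type and 138, 140 and 142 FPKM in S87L cord (log2 fold change 0.31, SE 0.03, limma adjusted p = 0.00122). Sdf2l1, its partner, was at 17.5, 18 and 17.7 FPKM against 29.8, 30.5 and 26.5 FPKM (0.69 on the log2 scale). Hsp90b1 and Pdia6 were higher by 0.29 and 0.27 on the log2 scale. The sensors Ern1 (-0.04) and Atf6 (-0.03) were not called. Of 24 genes of the integrated stress response, 6 were higher (2 stable, and 2 to 6 with 1 library left out) and 1 was lower without a stable call, with Mthfd2, a mitochondrial folate enzyme, higher by 0.43 and the stress protein Nupr1 by 0.66. None of 19 aminoacyl-tRNA synthetases was higher and 3 were lower (1 to 3 with 1 library left out), of which Cars was stable at -0.26.

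Transcripts of fast skeletal muscle, which move the limbs and trunk and are not made by neurons or glia as a group, were higher in S87L cord. Of 23 tested members 20 were higher and none lower, 15 of them stable, with 15 to 20 higher when 1 library was left out, while 8 further members fell below the FPKM limit. The summed level of the list ranged from 204.9 to 227 FPKM over the wild-type and from 301 to 314 FPKM over the S87L libraries. Acta1, the actin of the skeletal sarcomere, was measured at 4.85, 3.56 and 3.47 FPKM in wild-type and 21.4, 21.1 and 19.2 FPKM in S87L cord. Mb, myoglobin, was at 1.04, 0.770 and 0.961 FPKM against 5.99, 5.93 and 6.21 FPKM. Atp2a1, the calcium pump of fast fibres, was at 1.21, 1.38 and 1.36 FPKM against 5.95, 5.25 and 5.95 FPKM (log2 fold change 1.78, SE 0.07, limma adjusted p = 3.83e-05). All 3 S87L libraries were high for each of these genes, so no single library carried the difference. Pvalb (0.02 on the log2 scale), which interneurons of the cord also make, Pygm (0.17) and Ldb3 (-0.13) were not called. Reads of the related myosins Myh1, Myh2 and Myh4 may be shared among them.

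Muscle promoters often hold E-boxes, the element CANCTG read by MyoD and its relatives. Of the list's genes called higher, 14 matched a RefSeq window. Of these, 7 held CANCTG on either strand in the 150 bases before the start, against 30.1% of all windows. Genes were again counted by any of their windows, while 30.1% is a share of single windows. The windows below were chosen by the same rule and are shown with E-boxes in capitals. Atp2a1 lies on the minus strand at chr7:126463074-126463223, Acta1 on the minus strand at chr8:123894776-123894925 and Myh4 on the plus strand at chr11:67237662-67237811.
Atp2a1: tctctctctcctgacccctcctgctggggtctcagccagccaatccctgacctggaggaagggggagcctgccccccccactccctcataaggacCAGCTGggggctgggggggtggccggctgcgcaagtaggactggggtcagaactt
Acta1: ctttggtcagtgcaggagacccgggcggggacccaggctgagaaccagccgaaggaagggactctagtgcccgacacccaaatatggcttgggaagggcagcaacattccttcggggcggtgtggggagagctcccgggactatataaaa
Myh4: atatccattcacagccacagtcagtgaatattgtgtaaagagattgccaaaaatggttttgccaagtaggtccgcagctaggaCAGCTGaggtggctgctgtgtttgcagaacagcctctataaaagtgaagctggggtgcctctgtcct
The Atp2a1 and Myh4 windows hold 1 match each and the Acta1 window holds none.

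Lists of other tissues that lie on or around the cord differed in direction. Smooth muscle of vessel walls had 7 of 11 members higher (6 stable), among them the actin Acta2, at 3.87, 3.88 and 3.73 FPKM in wild-type and 8.03, 8.32 and 8.46 FPKM in S87L cord (log2 fold change 1.02), and Des, Tagln and Myh11 (1.19, 0.86 and 0.76). Of 20 genes of meninges and fibroblasts, 12 were higher (10 stable) and none was lower. Ogn, a matrix proteoglycan of the meninges, was at 5.96, 5.80 and 5.56 FPKM against 13.4, 13.7 and 12.9 FPKM (log2 fold change 1.14, SE 0.05, limma adjusted p = 3.83e-05), and the proteoglycan Dcn and the type I collagen chain Col1a1 were higher by 1.22 and 1.09. The summed level of that list was 81.1 to 88.9 FPKM in wild-type and 128 to 139 FPKM in S87L libraries. Adipocyte genes had 4 of 5 higher, with the fat cell protease Cfd at 1.10 and the lipid carrier Fabp4 at 0.84. Schwann cell genes, which make the myelin of nerve roots, had 4 of 10 higher (2 stable, and 2 without any 1 of the S87L libraries), and Prx, periaxin, was at 2.18, 1.91 and 1.87 FPKM against 3.04, 3.12 and 2.95 FPKM (0.51 on the log2 scale). The sum of that list, to which Mbp and Cnp of central myelin also belong, was lower in S87L cord, at 1400 to 1486 against 1487 to 1521 FPKM. Of 9 tested genes of cartilage and bone 1 was higher and 3 were lower (1 to 3 with 1 library left out), with a median log2 fold change of -0.21. None of 7 tested genes of sensory ganglion neurons was called by limma, but 2 were lower without wild-type replicate 2, with the FPKM limit raised to 1, with quantile normalization, with voom and with the trend of GC content and length removed, and 1 with median ratio scaling. The sum over all 17 genes of that list, tested or not, was 185 to 212 FPKM in wild-type and 173 to 184 FPKM in S87L libraries. Of 9 genes of red blood cells 3 were higher (1 to 4 with 1 library left out), among them the globin Hbb-bs (0.30), whose reads may be shared with its copy. The part of attached tissue in these differences was not tested.

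Macrophages of the brain's and cord's borders live in the meninges and around vessels and differ from microglia in their scavenger receptors and antigen-presenting genes. Of 11 tested markers of these cells, 10 were higher, 8 of them stable, and none was lower. Lyz2, lysozyme of macrophages and other myeloid cells, was measured at 16.8, 17.6 and 19 FPKM in wild-type and 27.1, 28.3 and 29.0 FPKM in S87L cord (log2 fold change 0.65, SE 0.05, limma adjusted p = 0.000750). The hemoglobin scavenger Cd163 was at 0.506, 0.582 and 0.413 FPKM against 1.47, 1.29 and 1.30 FPKM (log2 fold change 0.89), and the hyaluronan receptor Lyve1 was at 0.605, 0.486 and 0.585 FPKM against 1.57, 1.31 and 1.36 FPKM (0.85). Cd74, the invariant chain of MHC class II, was at 2.66, 1.45 and 1.95 FPKM against 4.99, 5.11 and 4.63 FPKM (1.13), and the class II chains H2-Aa and H2-Ab1 were higher by 0.74 and 0.61. As for every called gene, the groups did not overlap for these genes, though wild-type replicate 1 was the highest wild-type library for Cd74. The list's sum was 26.1 to 28.9 FPKM in wild-type and 47.4 to 49.0 FPKM in S87L libraries. Leaving out 1 library gave 8 to 10 members higher, and with the FPKM limit raised to 1, 6 were higher.

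Microglia, the resident macrophages of the cord's own tissue, had stable calls in the higher direction only, with median log2 fold changes of 0.17 and 0.13 for the lists below against 0.74 for border macrophages. Of 16 homeostatic markers 5 were higher (31.25%) and 1 was lower (6.25%), with the receptor Tmem119 the stable member (0.28 on the log2 scale). Neither P2ry12 (0.18) nor Cx3cr1 (-0.14) was called. Of 20 genes of disease-associated microglia, 8 were higher (40%) and 3 lower (15%), against 5.17% and 7.71% of all genes. The signalling adaptor Tyrobp was at 19.3, 19.3 and 19.9 FPKM in wild-type and 28.6, 28.9 and 26.3 FPKM in S87L cord (0.51 on the log2 scale), the lectin Lgals3 was higher by 0.59 and the chemokine Ccl6 by 0.53. Trem2 (0.20), Apoe (-0.09) and Spp1 (0.08) were not called. Between 1 and 4 homeostatic members stayed higher when 1 library was left out, and between 3 and 6 of the disease-associated genes. The 3 lower calls of the latter list fell to 1 without S87L replicate 3, with median ratio scaling or with the replicate block, and to 0 in the other 5 fits without 1 library. Of 29 interferon-stimulated genes 7 were higher (3 to 6 with 1 library left out) and none lower, and the 3 stable members were the tetherin Bst2 (0.42), the ubiquitin-like Isg15 (0.64) and Ifi27l2a (1.08).

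In endothelium, 5 of 28 markers were higher (3 without S87L replicate 1 or 2) and 3 lower. These are 17.9% and 10.7%, against 5.17% and 7.71% of all genes. The receptor Aplnr, through which apelin acts on growing vessels, was measured at 8.12, 8.11 and 7.90 FPKM in wild-type and 0.604, 0.833 and 0.738 FPKM in S87L cord (chromosome 2, 85136225 to 85139923; log2 fold change -2.81, SE 0.08, limma adjusted p = 1.08e-05). No other marker of the list changed by as much. The VEGF receptor Kdr was lower by 0.66 on the log2 scale, with 1.80, 1.83 and 1.78 FPKM against 0.889, 0.999 and 0.979 FPKM, while von Willebrand factor Vwf was higher by 0.68 and the blood-brain barrier pump Abcb1a by 0.27. Pan-endothelial Cdh5 (0.20), Pecam1 (0.13) and Tie1 (0.02), the barrier protein Cldn5 (-0.25) and the ligand Apln (-0.10) were not called, and the list's sum was 211 to 222 FPKM in wild-type and 212 to 219 FPKM in S87L libraries. Among 9 pericyte markers only Rgs5 was called (0.20 on the log2 scale), and leaving out any library ended that call.

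Hox genes mark position along the body axis, with paralog groups of higher number expressed toward the tail. The 6 tested genes of groups 9 and 10 were all lower and stable in S87L cord. The labels do not give the segments of cord taken, and the part of cord level in the Hox differences was not tested. Hoxa10 was measured at 4.37, 4.49 and 5.01 FPKM in wild-type and 0.653, 0.660 and 0.491 FPKM in S87L cord (log2 fold change -2.22, SE 0.09, limma adjusted p = 3.83e-05). Hoxc10 was at 9.34, 8.71 and 9.55 FPKM against 2.32, 2.14 and 2.52 FPKM (-1.78). Within group 9 the log2 fold change was -1.42 for Hoxd9, -1.19 for Hoxa9, -0.88 for Hoxc9 and -0.51 for Hoxb9. Of the 10 genes of groups 9 to 13 that did not reach the FPKM limit, 7 were listed at 0 in all 6 cord libraries. Among groups 1 to 8, 4 of 20 genes were higher (2 without S87L replicate 1 or 2), namely Hoxa4 (0.39) and all 3 tested genes of group 5, of which Hoxc5 (0.86) and Hoxa5 (0.60) were stable. Hoxd1 was lower (-0.50), a call lost in all 6 fits that left out 1 library, with quantile normalization and with the replicate block, and the gene is not tested with the FPKM limit at 1. The genes of groups 6 to 8, such as Hoxc8 at 37.8 ± 0.660 and 38.0 ± 0.383 FPKM (SD, n = 3 each), were not called. Of 30 transcription factors of spinal interneuron subtypes 1 was called higher, and it was not stable.

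**Figure D3:**
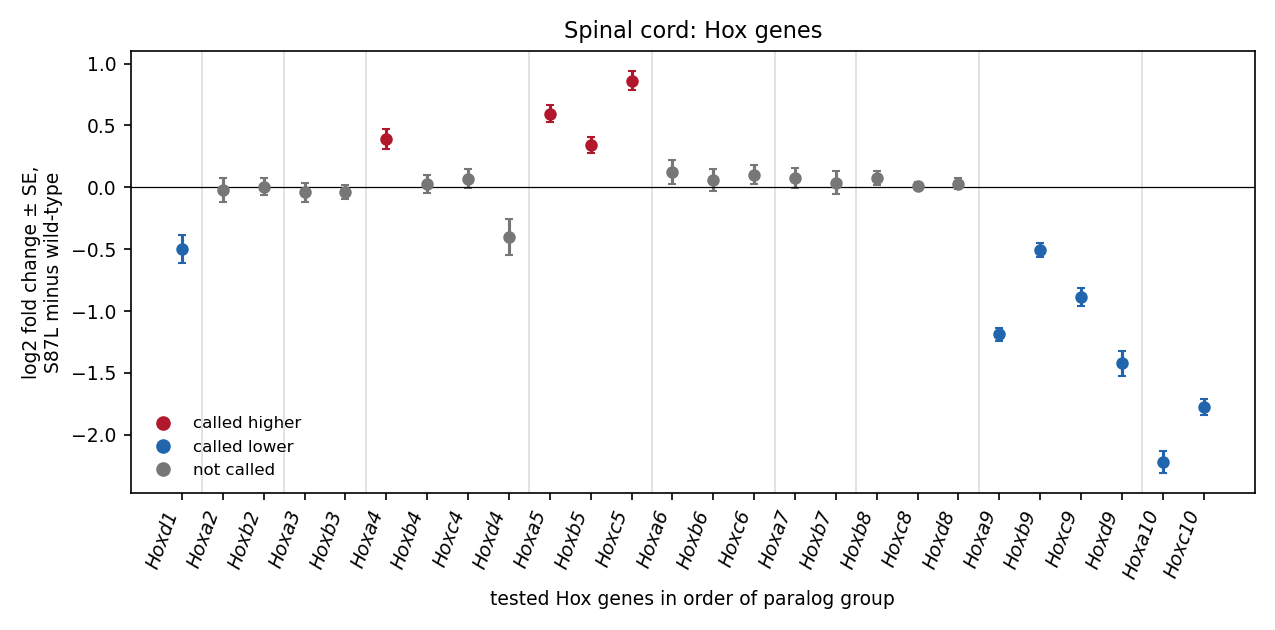
Points give the log2 fold change, S87L minus wild-type cord, of each tested Hox gene with its standard error (limma, 3 libraries per group), ordered by paralog group with vertical lines between groups. The group 9 and 10 genes lie between -0.51 and -2.22, and the called genes of groups 4 and 5 between 0.34 and 0.86.

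Of 30 tested long noncoding RNAs in this list 14 were lower, 11 of them stable, and none was higher. Malat1, an abundant RNA of nuclear speckles, was measured at 284, 294 and 278 FPKM in wild-type and 166, 165 and 178 FPKM in S87L cord (log2 fold change -0.75, SE 0.04, limma adjusted p = 9.97e-05). Neat1, the scaffold of paraspeckles, was at 9.16, 8.67 and 8.79 FPKM against 4.76, 4.76 and 4.63 FPKM (-0.85). The imprinted Meg3 was at 93.9, 92.4 and 89.7 FPKM against 38.1, 38.4 and 38.6 FPKM (chromosome 12, 109541001 to 109571726; -1.25), and the neuronal RNAs Snhg11 and Miat were lower by 1.11 and 1.07 on the log2 scale. Firre, which organises chromatin from the X chromosome, was lower by 0.43. Xist, named after its value was seen, was at 23.6, 28.3 and 26.5 FPKM against 17.5, 17.3 and 18.9 FPKM (-0.53, limma adjusted p = 0.00447). Tug1 (0.08) and Gas5 (0.08) were not called, nor was any of 19 snoRNA host genes.

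Calls also differed by annotated gene type, against 7.71% of all genes lower. Of 175 annotated microRNA features, which in total RNA libraries count the surrounding transcript, 49 (28.0%) were lower and none higher. Lower calls were made for 12 of 93 snoRNA (12.9%), 38 of 185 unconfirmed (TEC, 20.5%) and 51 of 382 lincRNA genes (13.4%). The share was near that of all genes for snRNA (4 of 45, 8.89%) and below it for antisense genes (20 of 347, 5.76%) and bidirectional promoter RNAs (1 of 70, 1.43%). The share of reads from ribosomal RNA features was 21956 to 23542 reads per M recovered reads in wild-type and 15401 to 17109 in S87L libraries, and that from lincRNA genes 8257 to 8475 against 6063 to 6356 reads per M. The abundant rRNA feature CT010467.1 was lower by 0.48 on the log2 scale, together with Gm15564, Gm24187 and Lars2, a mitochondrial leucyl-tRNA synthetase gene. Whether ribosomal RNA was removed before sequencing is not given, and the part of ribosomal and unspliced RNA content in the lower noncoding RNAs was not tested. Protein-coding genes took 949617 to 951845 of each M reads in wild-type and 959646 to 962304 in S87L libraries.

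Regulators of splicing choose which exons enter the mature RNA. Of 59 tested, 19 were lower (against 7.71% of all genes) and 1, Khdrbs3, was higher, and 5 of the 19 were stable. Srsf5, an SR protein that promotes exon inclusion, was measured at 39.7, 39.9 and 40.2 FPKM in wild-type and 23.0, 24.7 and 25.3 FPKM in S87L cord (log2 fold change -0.70, SE 0.04, limma adjusted p = 0.000200). The speckle proteins Pnisr, Srrm1 and Srrm2 were lower by 0.51, 0.30 and 0.25 on the log2 scale, and Tardbp (0.01) was not called. Leaving out 1 library left 5 to 15 members lower, and median ratio scaling left 11. The cold-induced gene Cirbp was at 17.7, 13.9 and 14.3 FPKM against 11.6, 12 and 11.4 FPKM, and its call was not stable.

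**Figure D4:**
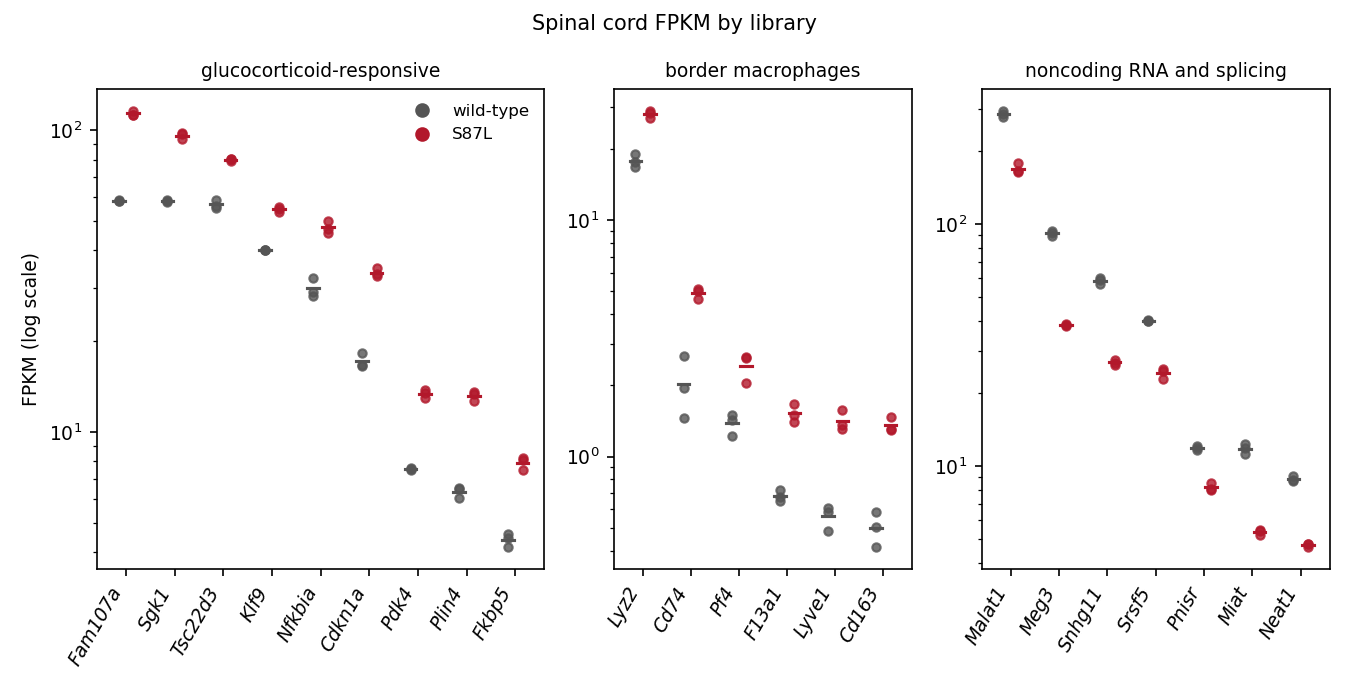
FPKM on a log scale in each of the 3 wild-type (grey) and 3 S87L (red) cord libraries for genes of 3 groups; short bars mark the group means. S87L is higher in the left and middle panels and lower in the right panel, as for Meg3 (89.7 to 93.9 against 38.1 to 38.6 FPKM). The groups do not overlap in any gene shown, which holds for every called gene of the comparison.

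Of 25 tested motor neuron genes, 3 were higher (Bcl6, Uts2b and Stk32a; 12% against 5.17% of all genes) and Nefm was lower (4% against 7.71%), and none of these calls was stable. Leaving out 1 library gave 0 to 2 higher. Chat, which makes acetylcholine, was measured at 6.79, 6.32 and 6.77 FPKM in wild-type and 6.39, 6.04 and 6.04 FPKM in S87L cord (log2 fold change -0.10, SE 0.05, limma adjusted p = 0.232). Its vesicular transporter Slc18a3 was at 21.1, 19.6 and 18.2 FPKM against 23.4, 24.9 and 20.4 FPKM (0.21, limma adjusted p = 0.139), and the groups of both genes overlapped. The neurofilaments Nefh (-0.01) and Nefl (-0.02) were not called. The summed level of the list was 1470 to 1484 FPKM in wild-type and 1411 to 1485 FPKM in S87L libraries.

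In lists of transmitter identity, neuropeptides, channels, receptors and axonal cytoskeleton, lower calls outnumbered higher ones, as over all genes (7.71% against 5.17%). This did not hold for interneuron transcription factors (1 of 30 higher, none lower) or sensory ganglion genes (none of 7 called). Of 14 genes of transmitter identity 3 were lower and none higher: Slc17a7, which loads glutamate into vesicles, at 2.35, 1.99 and 1.84 FPKM against 0.452, 0.433 and 0.318 FPKM (log2 fold change -1.50, SE 0.11, limma adjusted p = 0.000462), the proline transporter Slc6a7 (-0.53) and Gad1 (-0.16). Slc17a6, the glutamate transporter gene of most excitatory neurons of the cord (-0.08), the GABA and glycine carrier Slc32a1 (-0.01) and Slc6a5 (-0.02) were not called. Of 29 neuropeptide genes 8 were lower (5 to 7 with 1 library left out) and Uts2b was higher. The opioid precursor Penk was at 92.3, 83.2 and 87.8 FPKM against 69.0, 71.2 and 68.2 FPKM (-0.33), and Vip, Tac2, Npy and Pdyn were lower by 0.56, 0.48, 0.34 and 0.33 on the log2 scale. Among 62 voltage-gated channel genes 12 were lower (19.4%) and Hcn2 was higher (0.30). Lower channels numbered 4 without S87L replicate 1 or 2 and 7 without wild-type replicate 3. With voom 5 channels were higher and 19 lower, and with the trend of GC content and length removed 6 and 13. The 4 stable falls were all pore subunits of calcium channels, and Cacna1b, which supports transmitter release, was at 6.39, 6.61 and 6.51 FPKM against 4.67, 4.74 and 4.52 FPKM (-0.44). Cacna1e, Cacna1d and Cacna1g were lower by 0.42, 0.43 and 0.36.

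Of 40 receptor subunits for glutamate, GABA and glycine 8 were lower and none higher. Of these 2 were stable, and leaving out 1 library gave 2 to 9 lower, with 2 without S87L replicate 2 and 3 without S87L replicate 1 or wild-type replicate 3. Values were lower for the glycine receptor Glra1, at 103, 104 and 101 FPKM against 87.8, 88.2 and 89.1 FPKM (log2 fold change -0.22), and for the NMDA receptor subunit Grin2b, which was lower by 0.30. Of 36 genes of the axonal cytoskeleton and transport 6 were lower (3 or 4 with 1 library left out), among them the dynein heavy chain Dync1h1 (-0.24) and the tubulins Tuba1a (-0.22) and Tubb2b (-0.18), and Kif5b was higher (0.23). Calls also varied with gene structure: 13.2% of coding genes with over 20 exons were called lower, against 5.91% of those with 2 to 5 exons. With the trend of GC content and length removed, the median log2 fold change was -0.07 for the channels and -0.06 for the receptors, against -0.10 and -0.09 as deposited.

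Glial lists were mixed, and over all genes 5.17% were called higher and 7.71% lower. Of 20 genes of mature oligodendrocytes 6 were higher (30%, and 3 genes without S87L replicate 2) and 3 lower (15%). Opalin, a membrane protein of central myelin, was at 12.2, 10.2 and 12.9 FPKM in wild-type and 5.80, 6.62 and 6.16 FPKM in S87L cord (log2 fold change -0.87), and the protease Klk6 was lower by 0.27, while the prostaglandin synthase Ptgds and the lipocalin Apod were higher by 0.35 and 0.31. Mbp (-0.11) and Mog (-0.08) were not called, and the sum was 5775 to 5861 FPKM in wild-type and 5757 to 5942 FPKM in S87L libraries. Ptgds is also made by the meninges. Of 19 astrocyte genes 4 were higher (2 without S87L replicate 1 or 2), among them the connexin Gjb6 at 46.6, 49.8 and 48.7 FPKM against 65.4, 64.9 and 66.1 FPKM (0.43) and Acsbg1 (0.29), and 2 were lower. Of 16 genes of oligodendrocyte precursors 3 were higher (1 to 4 with 1 library left out), Tns3 (0.30) with a stable call, and 2 lower without one. These are 18.75% and 12.5%. Of 11 genes of the ependyma, which lines the central canal, 3 were lower (27.3%, and 1 gene without S87L replicate 2). Tmem212 was at 2.47, 2.64 and 2.38 FPKM against 1.42, 1.29 and 1.20 FPKM (-0.74).

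The title of the series names hydroxyl radicals, and genes of iron and peroxide handling were examined for that reason. Of 40 tested, 4 were higher (10%, 3 genes stable) and 1 was lower (2.5%), against 5.17% and 7.71% of all genes. Selenop, the selenium carrier, was at 246, 255 and 262 FPKM in wild-type and 319, 316 and 330 FPKM in S87L cord (log2 fold change 0.34), and the copper ferroxidases Cp and Heph were higher by 0.35 and 0.40. The transferrin receptor Tfrc was lower by 0.26, without a stable call. Hmox1 (0.05), Gpx4 (0.08), Cat (-0.05), Sod2 (-0.03), Fth1 (-0.03) and Slc40a1 (0.01) were not called, nor were most members of the list. In base excision and strand break repair, which mends oxidised bases, none of 32 was higher and 4 were lower (2 without S87L replicate 1 or 2). That is 12.5% lower, against 7.71% of all genes. The ligase Lig3 was at 4.28, 4.46 and 4.18 FPKM against 3.28, 3.28 and 3.50 FPKM (-0.32), the glycosylase Neil1 was lower by 0.41 and the endonuclease Apex1 by 0.22.

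Of 27 p53 targets 7 were higher (25.9%, 5 genes stable) and 2 lower (7.41%), against 5.17% and 7.71% of all genes. Cdkn1a, the inhibitor p21, was at 18.3, 16.7 and 16.6 FPKM in wild-type and 33.3, 34.9 and 32.9 FPKM in S87L cord (log2 fold change 0.95, SE 0.05, limma adjusted p = 8.71e-05), and it responds to glucocorticoids as well. Ccng1 was higher by 0.52, Sesn1 by 0.35 and Gadd45a by 0.31, while Mdm2 (0.04) and Bax (-0.11) were not called. In the BCL2 family and caspases 4 of 24 were higher (1 to 3 with 1 library left out), with the survival gene Bcl2l1 stable at 0.44, and 1 was lower. Of 28 genes of hypoxia and glycolysis 7 were higher (4 without S87L replicate 1 or 2) and 3 lower. Vegfa, the vessel growth factor, was at 13, 13 and 13.1 FPKM against 8.97, 9.32 and 9.36 FPKM (-0.48) and Ldha was lower by 0.29, while the mTOR inhibitor Ddit4 (0.77), which glucocorticoids also induce, and the collagen hydroxylase P4ha1 (0.38) were higher.

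Secreted factors and matrix showed both directions. Of 26 collagen chains 3 were higher and 8 lower, but 2 of the falls were stable and leaving out any 1 library left 2 to 5 lower. Col1a1 and Col1a2 of fibroblasts were higher by 1.09 and 0.63, and Col11a1 of cartilage was lower by 0.84 and Col23a1 by 0.27. In the retinoic acid list 5 of 16 were higher and none lower. Aldh1a2, the synthesising enzyme of the meninges, was at 3.07, 3.34 and 2.84 FPKM in wild-type and 5.36, 5.35 and 5.54 FPKM in S87L cord (log2 fold change 0.73), Aldh1a1 was higher by 0.33 and the retinol carrier Rbp4 by 0.68. In the IGF axis 3 of 13 tested genes were higher (2 stable) and 2 were lower without a stable call. These are 23.1% and 15.4%, against 5.17% and 7.71% of all genes. The imprinted RNA H19 was at 0.718, 0.714 and 0.583 FPKM against 1.55, 1.68 and 1.5 FPKM (0.83) and Igfbp2 of the meninges was higher by 0.63. Of 24 Wnt and BMP ligands and antagonists 2 were higher and 5 lower (3 without S87L replicate 2), with the antagonists Sfrp5 and Sostdc1 and the ligand Wnt7a lower by 0.44, 0.61 and 0.50.

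Of 70 genes of inherited neuropathies 8 were higher (2 to 8 with 1 library left out) and 3 lower (1 to 3), with stable calls for 2 of the former and 1 of the latter. These are 11.4% higher and 4.29% lower, against 5.17% and 7.71% of all genes. Prx of peripheral myelin, also counted as a Schwann cell gene, was higher by 0.51, and Dync1h1 was lower by 0.24. Mfn2 (-0.01), Gdap1 (0.02) and Kif1b (-0.11) were not called. Among 18 tested genes of the HUSH complex and its partners only Morc2a itself was called (5.56% lower, against 7.71% of all genes). Mphosph8 (-0.05), Pphln1 (0.03) and Setdb1 (-0.12) were not called. Of 34 tested genes within 1 Mb on either side of Morc2a, 1 was higher and 2 were lower, with a median log2 fold change of -0.00. Over all genes 5.17% were higher and 7.71% lower. The called genes nearest to it were Tcn2 (0.22), Sfi1 (-0.49), Mtmr3 (-0.18), Cabp7 (0.22) and Nipsnap1 (-0.14), and none of them was stable.

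Called genes were also examined by position. Runs of at least 4 neighbouring tested genes called in the same direction numbered 9, and 8 of these were lower. They included Rian with Mir341, Mir1188 and Gm24564 at chromosome 12, 109603940 to 109661716, the Snhg14 region of chromosome 7, 59258855 to 59975759, and Gm14412, Gm14418, Zfp970 and Gm14403 on chromosome 2, 177314520 to 177509763. Zfp970, a zinc finger gene of a cluster, was at 6.53, 7.84 and 7.67 FPKM in wild-type and 2.46, 3.14 and 2.34 FPKM in S87L cord (log2 fold change -1.32). The sole run of higher genes held Hist2h2be, Hist2h3c2, Hist2h2aa2, Fcgr1 and Txnip, the thioredoxin inhibitor, which was higher by 0.50 and is induced by glucose. Genes of such clusters are similar in sequence or overlap, and whether counting used the strand is not given, so their reads may be shared.

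The effect of the genotype was set against that in fetal fibroblasts, a culture grown from fetuses of the same genotypes. Of 12389 genes measured in both tissues, the interaction term of a fit over all 11 libraries was called for 1632 (13.2%), 885 with the higher effect in cord and 747 with the lower. Genes called in cord often had such a difference, whatever their list. Of those called higher in cord, 345 of 654 had a higher effect in cord. Of those called lower, 290 of 819 had a lower one. The counts below are for lists with many calls in cord and are to be read beside these. The list of glucocorticoid-responsive genes had 19 members measured in both tissues, and 11 of these had a higher effect in cord and none a lower one. In fibroblasts Tsc22d3 stood at -0.26 on the log2 scale against 0.49 in cord, while Pdk4, at 0.44 and 0.79, did not differ by the test (limma adjusted p = 0.139). All 6 Hox genes of groups 9 and 10 had a lower effect in cord, and here too the part of cord level was not tested. A lower effect in cord was also called for 8 of 18 long noncoding RNAs and 17 of 51 splicing regulators, with 1 higher in each of these lists. Malat1 stood at 0.08 in fibroblasts against -0.75 in cord, and Srsf5 at 0.04 against -0.70. Of 16 meninges and fibroblast genes 13 had a higher effect in cord.

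The genes with the smallest p in this test were Prelp and Dcn, proteoglycans of connective tissue. Dcn was at 4.90, 4.65 and 4.47 FPKM in wild-type and 11.1, 11.6 and 12 FPKM in S87L cord, and at 17.5, 18 and 17.2 FPKM in wild-type and 9.55 and 8.62 FPKM in S87L fibroblasts. Its log2 fold change was thus 1.22 in cord and -0.92 in fibroblasts. Igfbp2, Apod and Lum also had a positive change in cord and a negative one in fibroblasts. Spp1, osteopontin, was at 166, 167 and 172 FPKM in wild-type and 335 and 340 FPKM in S87L fibroblasts, with 69.7 to 72.8 and 73.2 to 77.0 FPKM in cord. Morc2a (-0.20 in cord, -0.17 in fibroblasts), Zfp970 (-1.32 and -1.19), Hoxa5 (0.60 and 0.57) and the p53 target Ccng1 (0.52 and 0.62) did not differ between the tissues by the test, with limma adjusted p of 0.785, 0.631, 0.903 and 0.439.

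**Figure D5:**
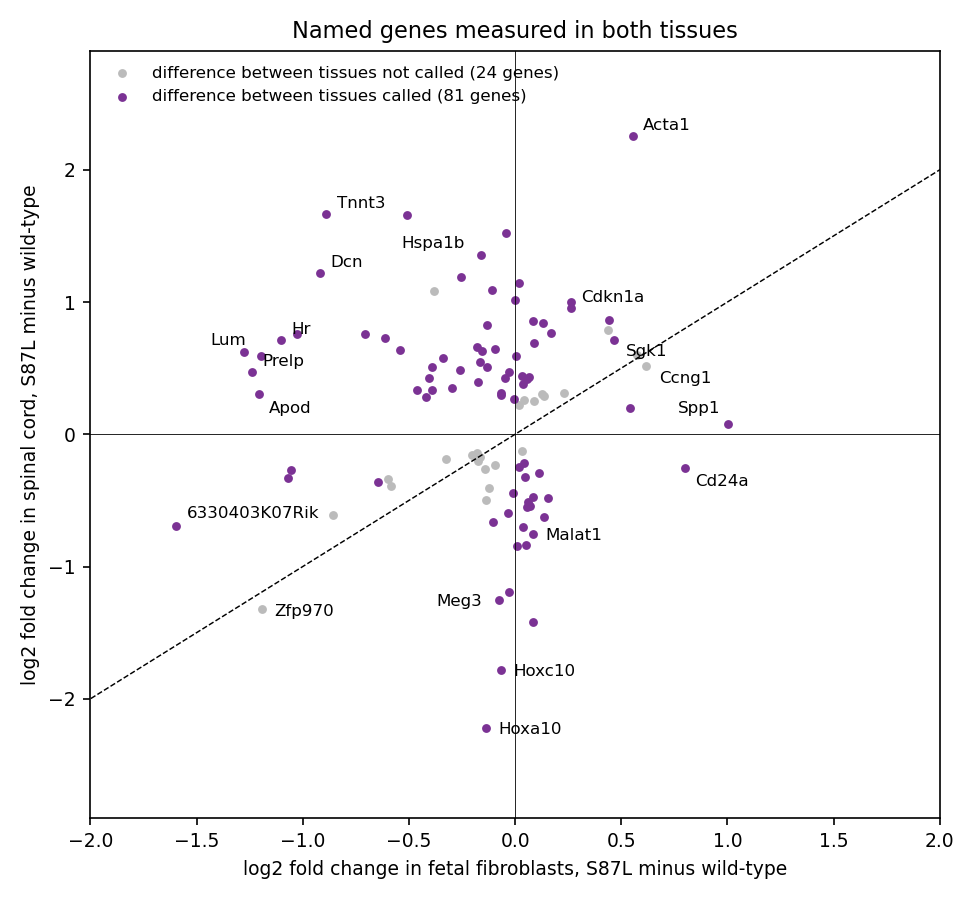
Each point is a named gene measured in both tissues (105 genes), with its log2 fold change in fetal fibroblasts on the x axis and in spinal cord on the y axis, S87L minus wild-type. The named genes were chosen in part for large stable changes in cord or a small p in this test; purple points (81) had a called interaction term, against 13.2% of all genes measured in both tissues, and the dashed line marks equal effects, near which Zfp970, Hoxa5 and Ccng1 lie.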

How the data were processed

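Per the labels, spinal cord RNA was isolated in TRIzol, and the NEBNext Ultra II Directional kit, which keeps the strand, was used for the libraries. The authors deposited FPKM values for 11 libraries. Per the submitters' processing notes, HTSeq 0.11.3, HISAT2 2.2.1, Trimmomatic 0.39 and Picard 2.25.5 were used with GRCm38. These notes give no role for each tool, and the annotation release and the strand setting of the counting are not given. The FPKM values move in steps of 1 read, and dividing by the step gave whole reads, within 0.05, for 98.51% to 98.6% of values per library.

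Symbols, gene types and GRCm38 coordinates came from a GENCODE annotation, which held 55227 of the identifiers and lacked 260. The fit of the cord libraries used log2(FPKM + 0.5) and limma 3.58.1 (R 4.3.3), with its trend and robust options and Benjamini-Hochberg adjustment over all tested genes. Fold changes are on that scale and understate the change of low genes, and SE is the moderated standard error. The scripts were tested on simulated data. The replicate numbers were not taken as pairs, since the labels do not say that shared numbers pair libraries.

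The members and the gene lists were chosen with earlier results of these data known, so their counts are a description. Named genes were Morc2a, the 15 largest stable rises and falls with at least 1 FPKM in the higher group, the 8 smallest p in each direction over 50 FPKM, up to 4 stable members per list, 5 interaction genes in each direction and the 5 called genes nearest Morc2a. Other genes are named as examples of their list, whatever their call. Alternatives were other pseudocounts, filters and scalings, a replicate block, voom on recovered reads and leaving out each library. A few genes that this rule names are not reported here.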

Additional observations from a re-analysis of the deposited data

Results flagged for a closer look

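The effect of the genotype differed between spinal cord and fetal fibroblasts, by the interaction term of the limma fit over 11 libraries, for 81 of 105 named genes, which were chosen in part for large changes in cord or for a small p in this test (13.2% of all genes measured in both tissues were called). Given here are 16 of them, namely 5 per direction by smallest p and those among the largest stable changes in cord. The values are the effect in cord minus that in fibroblasts on the log2 scale. Among genes of connective tissue, the difference was 1.71 for Prelp, 2.14 for Dcn and 1.79 for Lum. It was 1.51 for Apod, which is listed with mature oligodendrocytes. It was 1.82 for Hr, a corepressor of nuclear receptors. Among muscle genes it was 1.70 for Acta1, 1.57 for Tnni2, 2.17 for Cox6a2 and 2.56 for Tnnt3. The difference was negative for the Hox genes Hoxa10 (-2.08), Hoxc10 (-1.71), Hoxd9 (-1.51) and Hoxa9 (-1.16), for the imprinted RNA Meg3 (-1.18), and for Spp1 (-0.92) and the surface protein Cd24a (-1.05). The S87L fibroblast group has 2 libraries. Over all genes, the interaction was called for 1136 without its replicate 1 and 1654 without its replicate 2, against 1632 with both. Beyond leaving out libraries, groups of 3 or fewer were not examined for single outlying values.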

How the results depend on the processing

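The 809 genes called higher became 1269 with voom on recovered reads and 1766 with the trend of GC content and length removed, an alternative chosen after seeing the data. Leaving out 1 library gave 344 to 758 higher and 494 to 879 lower genes, the fewest without S87L replicate 2, and 1136 to 1853 calls of the interaction. The fits without wild-type replicate 2 (486 higher, 677 lower) or 3 (454, 590) and without S87L replicate 1 (387, 521) or 3 (523, 690) also moved the counts by over 1.5 times. The 8 other alternatives and the fit without wild-type replicate 1 kept both counts within 1.5 times of the main ones. The call of Morc2a was lost with no filter (log2 fold change -0.20, limma adjusted p = 0.0505) and with quantile normalization (-0.16, 0.0710), and its fold change was -0.21 to -0.18 with 1 library left out. CT010467.1 had a fold change of 0 with quantile normalization, where it holds the same rank in every library.

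With the replicate number as a block, 716 genes were higher and 947 lower, the interaction was called for 960 genes, and Morc2a lost its call (-0.20, limma adjusted p = 0.0508). Same-numbered cord libraries had correlations of deviations of 0.149, -0.0505 and 0.111. Wild-type replicates 1 and 3 correlated best with the S87L library of the same number, and wild-type replicate 2 with S87L replicate 3. With 3 libraries per group these values cannot decide whether the libraries are paired. Low genes are limited by depth: 1 read on a gene of 1 kb is worth 0.0440 to 0.0683 FPKM in the cord libraries.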
